A study of Ovis aries with 15 samples.

Results

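Clustered distal H3K27ac regions are stretches of acetylated chromatin that lie close together and away from promoter marks. They were chosen by the positions of H3K27ac and H3K4me3 regions of this series and not by read counts, so the set is not independent of these data. An H3K27ac region on chromosomes 1 to 26 was called distal when it overlapped no H3K4me3 region by 1 bp, distal regions with gaps of 12.5 kb or less were chained, and chains of 5 or more regions were kept. This gave 19868 regions in 2491 chains, out of 87272 H3K27ac regions of which 52329 were distal. The other distal regions were 20712 in chains of 2 to 4 and 11749 isolated ones, and 33917 regions overlapped H3K4me3. No gene annotation of the same genome build was used, so that distal here refers to the H3K4me3 mark and not to the distance from a gene.

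Acetylation of lysine 27 on histone H3 is laid down by the coactivators p300 and CBP and marks enhancers and promoters that are in use, and H3K4me3 sits mainly at promoters. Long runs of acetylated enhancers, often called super-enhancers, bind much of a cell's coactivator and commonly lie beside the genes that define its type. Perirenal fat of sheep is brown, heat-producing fat around birth and becomes white, storing fat in the weeks that follow, so its enhancers are read here at both ends of that change.

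The lambs were wild type merino animals, aged 80 days after birth in the study design and 89 ± 7 days in the growth protocol. The fetuses were wild type merino animals at 132 ± 1 days after conception (term 150 ± 3 days). No group was treated as far as the labels say, but the lamb titles carry the tag VEH and the fetal titles do not, so this tag and stage cannot be told apart, and sex is not in the labels. H3K27ac and H3K27me3 were measured in 2 lambs and 2 fetuses and H3K4me3 in 3 lambs and 2 fetuses, each animal as 1 library of native chromatin cut to about 150 bp.

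The H3K27ac libraries held 43345057 and 34871674 reads in regions for lambs 1 and 2, and 44096535 and 40308326 for fetuses 1 and 2. For H3K27me3 these were 7522649 and 7233767 in lambs, and 10645917 and 10144027 in fetuses. For H3K4me3 they were 41765806, 13090548 and 12482468 in lambs 1, 2 and 3, and 37544047 and 58333449 in fetuses 1 and 2. The log2 levels of the H3K27ac libraries over all H3K27ac regions correlated at r = 0.98 between lambs and 0.95 between fetuses. Between a lamb and a fetus they correlated at 0.87 to 0.93. Fetus 2 had the lowest values with the lambs (0.87 and 0.90). The labelled tissue was checked at promoters, in H3K27ac signal scaled to a sum of 1000000 over the promoters of a library, where the median promoter had 65.6 to 72.5. The 8 matched genes of 10 adipocyte markers summed to 770 and 735 in lambs, against 1060 and 1208 in fetuses. The 7 matched genes of 8 brown fat markers summed to 461 and 463 in lambs, against 647 and 724 in fetuses. UCP1, the uncoupling protein of brown fat, had 52.6 and 54.6 in lambs and 95.5 and 98.0 in fetuses. CIDEA of the same list went the other way, at 57.5 and 57.7 in lambs and 51.3 and 48.2 in fetuses. EBF2 overlapped between the stages. Markers of other cells moved with stage too. The 5 matched genes of 8 lymphocyte markers summed to 376 and 313 in lambs, against 185 and 168 in fetuses, and the 6 stromal markers to 518 and 564 in lambs, against 776 and 864 in fetuses. The 5 matched genes of 7 macrophage markers summed to 422 and 396 in lambs, against 361 and 351 in fetuses. Single genes could oppose their list's sum. Stromal PDGFRA had 75.7 and 86.5 in lambs and 46.4 and 50.6 in fetuses. Macrophage MRC1 had 81.8 and 79.7 in lambs and 91.1 and 117 in fetuses. Endothelial markers (5 of 6 matched) summed to 508 and 470 in lambs and 574 and 536 in fetuses, skeletal muscle markers (2 of 5) to 115 and 116 in lambs and 96.9 and 170 in fetuses, and adrenal markers (3 of 5) to 248 and 255 in lambs and 214 and 208 in fetuses. No matched marker was at 0, and the part of these cells in the results below was not tested. In chromatin of whole tissue, fewer cells of a type and less acetylation per cell cannot be told apart.

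Clustered distal regions more often gained than lost H3K27ac in lambs, by small amounts. Among the 19868 regions, 1332 (6.70%) were higher and 939 (4.73%) lower in lambs at an adjusted p under 0.05. Over all H3K27ac regions 13.9% were called, 4.48% higher and 9.44% lower. The median log2 change (lamb minus fetus) was 0.11 in clustered regions, with quartiles at -0.13 and 0.33 and 62.4% of regions above 0, and it was 0.00 over all regions. Regions in chains of 2 to 4 had 970 higher and 1524 lower with a median of 0.04. Isolated regions had 461 higher and 850 lower with a median of 0.02, and H3K4me3-overlapping regions had 1086 higher and 4774 lower with a median of -0.08. As shares, 4.68% were higher and 7.36% lower in chains of 2 to 4, 3.92% and 7.23% among isolated regions, and 3.20% and 14.1% among H3K4me3-overlapping regions. The differences between the sets were not tested across regions.

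**Figure D1:**
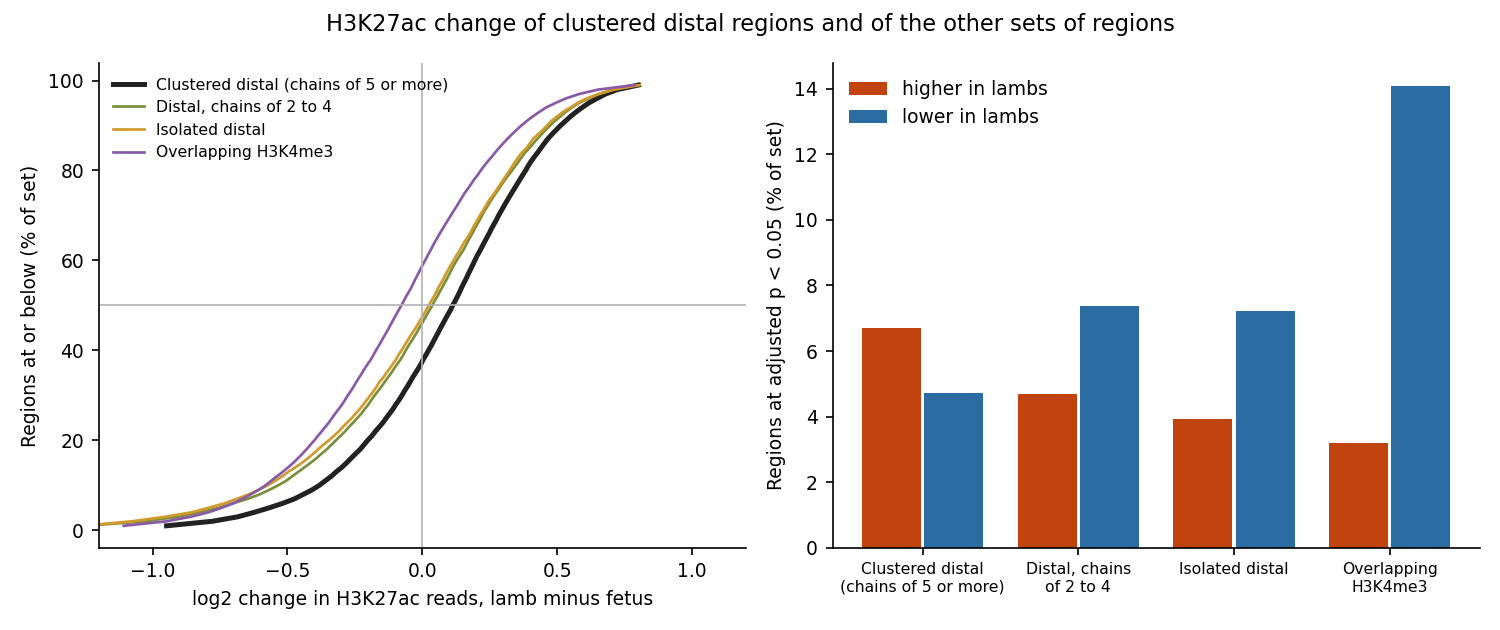
Left, cumulative share of regions (percent of the set, percentiles 1 to 99) against the log2 change in H3K27ac reads, lamb minus fetus, for clustered distal regions and 3 other sets; right, percent of each set called higher or lower in lambs at adjusted p under 0.05. The curve of clustered regions lies to the right, with its median at 0.11, and theirs is the set with more regions higher (6.70%) than lower (4.73%).

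The excess of gains over losses did not hold without every library. Without lamb 1 there were 60 higher and 236 lower clustered regions, without lamb 2 there were 220 and 292, without fetus 1 there were 4261 and 2330, and without fetus 2 there were 2192 and 1277. The median of clustered regions stayed between 0.09 and 0.13 in these fits, against 0.01 or less in size over all regions. Taken as single pairs of animals, the clustered median lay above the median of all regions by 0.12 and 0.13 for lamb 1 against fetuses 1 and 2 and by 0.09 for lamb 2 against either fetus. It lay 0.04 above for lamb 1 against lamb 2 and 0.00 above for fetus 1 against fetus 2. All 4 lamb to fetus pairs therefore had the shift, and it was larger than in the 1 pair of lambs and the 1 pair of fetuses. The 4 pairs reuse the same 2 lambs and 2 fetuses, so they are not independent.

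The share of all H3K27ac region reads that fell in clustered regions was 19.5% and 19.3% in lambs, against 17.9% and 17.7% in fetuses. Both lambs lay above both fetuses, with means of 19.4% ± 0.177 in lambs and 17.8% ± 0.0922 in fetuses (SD, n = 2 each), a difference of 1.58 percentage points. An exact two-sided permutation test gave p = 0.333, the smallest that 2 against 2 libraries allow. H3K4me3-overlapping regions took 55.6% and 55.7% of the reads in lambs, against 58.6% and 57.5% in fetuses. Regions in chains of 2 to 4 took 16.1% and 16.2% in lambs, against 15.2% and 15.9% in fetuses, and isolated regions 7.87% and 8.02% in lambs, against 7.41% and 7.98% in fetuses. Shares of 1 total offset each other, and every distal set had the higher mean in lambs.

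The shift was also present at matched levels. Clustered regions had a median level of 6.91 CPM (reads per 1000000 of the scaled library), a median width of 1150 bp and 6.02 CPM per kb, against 7.47 CPM, 1250 bp and 6.04 CPM per kb for all regions. When all regions were split into 4 equal groups by mean level (bounds at 4.95, 7.47 and 12.9 CPM), the median log2 change of clustered regions was 0.08, 0.18, 0.12 and 0.05, weakest group first. The median of all regions in the same groups was 0.01, 0.10, 0.02 and -0.11. Of the 21818 regions in the strongest group, 14874 overlapped H3K4me3, so level was matched there and type of region was not. Among other distal regions the medians were 0.00, 0.09, 0.05 and -0.04 in chains of 2 to 4. Isolated regions had -0.02, 0.08, 0.05 and -0.07. In the strongest group 262 clustered regions were higher and 371 lower in lambs, so there losses were the more common call, as they were over all regions (879 higher and 4114 lower).

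**Figure D2:**
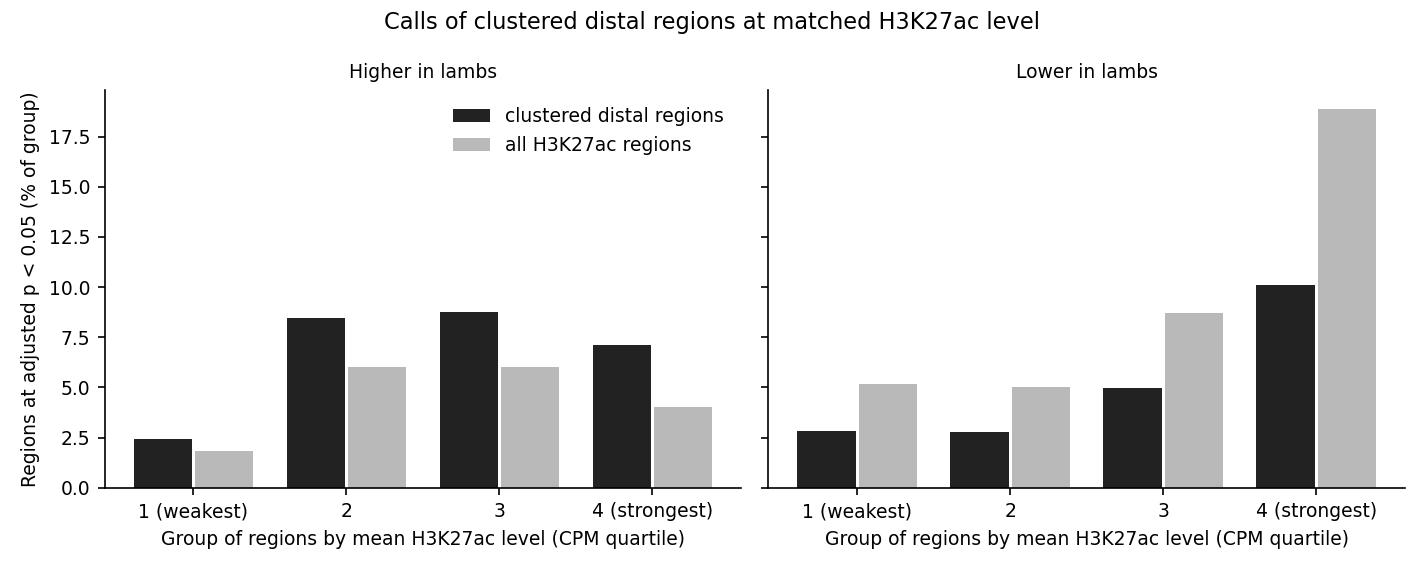
Percent of regions called higher (left) or lower (right) in lambs at adjusted p under 0.05, in 4 equal groups of all H3K27ac regions by mean level, for clustered distal regions and for all H3K27ac regions. In each group the clustered regions have the taller bar for gains and the shorter bar for losses.

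The difference was spread over the genome. On each of the 26 chromosomes the median change of clustered regions lay above that of all H3K27ac regions of the chromosome, by 0.031 on chromosome 23 up to 0.141 on chromosome 10. Chromosome 1 had the most called chains, 45 higher and 10 lower of 302. Chromosome 16 had 30.1% of its H3K27ac regions in chains, the highest share, with 2 chains higher and 8 lower of 76.

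Summed over a chain, the acetylation of most clusters changed modestly, and the largest falls were larger than the largest rises. A chain had a median of 7 regions (at most 49) and spanned a median of 32500 bp (6000 to 230950), of which its members covered a median of 30.5%. The summed level had a median of 58.5 CPM (15.2 to 939), of which the strongest member gave a median of 28.3%. Ranked by summed level among all distal chains and isolated regions, the top 100 were all chains of 5 or more, as were 497 of the top 500. A sum grows with the number of members, so the rule itself favours this ranking.

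Of the 2491 chains, 235 (9.43%) were higher and 173 (6.95%) lower in lambs. In the same table, in which each distal chain or other region counts once, 15.0% of units were called, 3.67% higher and 11.3% lower. The log2 change of the chains ran between -1.94 and 0.79 with a median of 0.08 and quartiles at -0.11 and 0.24. The larger size of falls thus held for the extremes and not for the middle of the chains. No chain rose by more than 1 on the log2 scale, and 8 fell by more than that. Chains of exactly 4 regions, just outside the rule, had 73 higher and 126 lower of 1263 with a median of 0.02. Chains of exactly 5, just inside it, had 58 higher and 70 lower of 778 with a median of 0.06.

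Longer chains had a smaller share of losses, a difference that was not tested. Chains of 5 to 9 regions had 157 higher and 148 lower of 1952, and chains of 10 to 19 had 70 higher and 25 lower of 477. Of the 62 chains of 20 or more, 8 were higher and 0 lower by edgeR. At an unadjusted p under 0.05, 15 of these were higher and 1 lower, and DESeq2 called 7 higher and 0 lower. A sum over more regions has a smaller counting error, so these counts also carry the depth of a chain. As for the regions, 1 library could turn the split. Without lamb 1 there were 13 chains higher and 65 lower, without lamb 2 there were 56 and 80, without fetus 1 there were 614 and 389, and without fetus 2 there were 339 and 227.

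The longest and strongest chains moved little. The chain at chr3:80924201-81155150 (all coordinates in the Oar_v3.1 build) held 49 regions over 230950 bp and ranked first in both number of regions and level. It had 1061 and 962 summed CPM in lambs, against 984 and 749 CPM in fetuses. The lower lamb lay below the higher fetus, and the log2 change was 0.22 ± 0.11 (SE) with an adjusted p of 0.184. Its log2 change was positive in 48 of 49 members, of which 2 were called higher. Without fetus 1 its log2 change was 0.43 with an adjusted p of 0.000266, so its call rests on which fetus is used. Its strongest member, chr3:81120151-81145250, was 25100 bp wide with 186 and 182 CPM in lambs, against 204 and 148 CPM in fetuses, a spread between fetuses that was wider than the change of 0.06 ± 0.13.

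Of the 6 chains with most regions, the chain of 39 regions at chr2:155867851-156068700 was called. It had 493 and 521 CPM in lambs, against 405 and 432 CPM in fetuses. Both lambs lay above both fetuses, and the chain rose by 0.28 ± 0.09 (adjusted p = 0.0444). This call was lost without lamb 1, without lamb 2, without fetus 1 and under DESeq2 (adjusted p between 0.0700 and 0.367), with log2 changes between 0.23 and 0.32. It held 9 members called higher, the largest change being at chr2:155998051-155998950 (8.67 and 8.75 CPM in lambs, against 5.05 and 4.09 CPM in fetuses, 0.93 ± 0.18).

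The other long or strong chains were not called. The chain of 28 regions at chr7:77132501-77278650, second by level, had 797 and 748 CPM in lambs, against 753 and 680 CPM in fetuses (0.11 ± 0.08, adjusted p = 0.400). The chain of 35 regions at chr3:69251701-69450350 had 462 and 474 CPM in lambs, against 447 and 388 CPM in fetuses (0.17 ± 0.09, adjusted p = 0.241). Its call also turns on 1 fetus, with 0.27 and an adjusted p of 0.0343 without fetus 1. Among the 6 strongest, the chain of 29 regions at chr13:1692851-1845000 was the one with a negative value, at 398 and 389 CPM in lambs, against 464 and 427 CPM in fetuses (-0.18 ± 0.09, adjusted p = 0.183). Chains of 36 regions each at chr20:41119751-41326650, chr3:78077651-78248550 and chr26:22357301-22517200 had log2 changes of 0.03, 0.04 and 0.04, each smaller than its standard error of 0.09.

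The largest falls were whole chains that lost acetylation at nearly every member. The chain of 10 regions at chr15:44292101-44338000 spanned 45900 bp and had 42.5 and 38.5 CPM in lambs, against 151 and 161 CPM in fetuses. No overlap of the stages was a condition for this list, and the means were 40.5 ± 2.82 CPM in lambs and 156 ± 6.99 CPM in fetuses (SD, n = 2 each). The chain fell by 1.94 on the log2 scale (SE 0.11, adjusted p = 6.41e-06 by edgeR). All 10 members were lower in lambs, with log2 changes between -2.25 and -1.45, and the 4 largest falls of any clustered region were in this chain. The strongest of its members, chr15:44304401-44310500, was 6100 bp wide and had 11.3 and 10.8 CPM in lambs, against 45.3 and 50.6 CPM in fetuses. The member with the largest fall, chr15:44318801-44322050, had 6.51 and 4.45 CPM in lambs, against 24.1 and 28.2 CPM in fetuses (-2.25 ± 0.18, adjusted p = 2.74e-05).

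The next falls were shorter chains. The chain of 6 regions at chr3:167294601-167308550 had 24.9 and 25.8 CPM in lambs, against 64.0 and 78.8 CPM in fetuses, and fell by 1.49 (SE 0.13, adjusted p = 7.01e-05). The chain of 5 regions at chr4:89291801-89308500 had 9.90 and 12.7 CPM in lambs, against 33.6 and 29.0 CPM in fetuses, and fell by 1.47 (SE 0.16, adjusted p = 0.000211). In both chains every member was called lower in lambs. The chain at chr16:20387101-20410400 had 52.1 and 47.2 CPM in lambs, against 117 and 135 CPM in fetuses, and fell by 1.34 (SE 0.12). There 4 of 5 members were called, and its last member, chr16:20402001-20410400, gave 50.8% of the level. The chains at chr4:34821501-34849150 and chr16:399951-424800 fell by 1.09 each, with 3 of 5 and 5 of 6 members called lower. In these 6 chains every member had a negative log2 change, and none overlapped an H3K27me3 region.

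The largest rises were smaller and also involved most members of a chain. The chain of 5 regions at chr1:114724801-114743600 had 55.3 and 55.1 CPM in lambs, against 35.2 and 28.8 CPM in fetuses. Here too the lack of overlap was part of the choice, and the chain rose by 0.79 ± 0.13 (adjusted p = 0.00186) with all 5 members called higher. The chain of 10 regions at chr25:34581001-34621800 had 195 and 164 CPM in lambs, against 130 and 102 CPM in fetuses, and rose by 0.63 ± 0.13 (adjusted p = 0.00581). Its members were called higher at 8 of 10 places with log2 changes between 0.52 and 0.90, although without lamb 1 the chain had an adjusted p of 0.0582 at a log2 change of 0.50.

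Of the remaining 4, the chain at chr2:82353001-82361750 had 35.0 and 36.5 CPM in lambs, against 21.8 and 22.8 CPM in fetuses, and rose by 0.68 ± 0.13. The chain at chr17:50853301-50875850 had 70.6 and 71.0 CPM in lambs, against 50.6 and 40.9 CPM in fetuses, and rose by 0.63 ± 0.12. These 2 calls held without each library. The chains at chr15:41834551-41854600 (0.64 ± 0.14) and chr1:33399001-33429950 (0.63 ± 0.13) were lost without lamb 1, with adjusted p of 0.134 and 0.0975 and log2 changes of 0.55 and 0.58. Every member of these 4 chains had a positive log2 change.

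**Figure D3:**
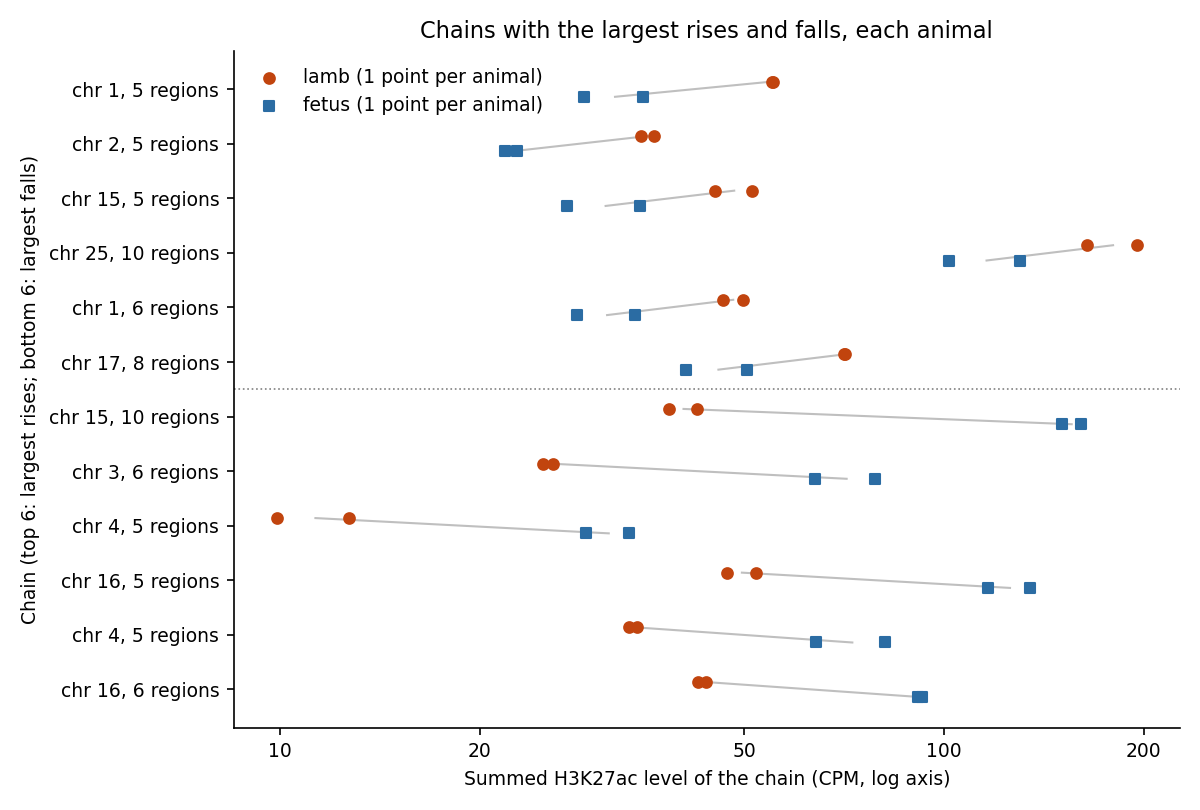
Summed H3K27ac level of the 6 chains with the largest rises (top) and the 6 with the largest falls (bottom) in CPM on a log axis, with 1 point per animal, lambs as circles above and fetuses as squares below, and a grey line between the stage means. The chains were picked from those in which the stages do not overlap, so the separation is part of the choice, and the distances are longest for the falling chains, up to 40.5 against 156 CPM.

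The 4 largest rises of single regions stood in other chains. Region chr21:46573951-46574850 had 20.0 and 11.6 CPM in lambs, against 6.84 and 4.37 CPM in fetuses, and rose by 1.5 ± 0.25 (adjusted p = 0.00174), while its chain of 8 regions had a log2 change of -0.13. Region chr3:128174101-128174750 had 8.01 and 8.03 CPM in lambs, against 2.88 and 3.17 CPM in fetuses, and rose by 1.41 ± 0.19 in a chain that was not called (0.34). Regions chr1:197397901-197398650 (1.25 ± 0.18) and chr15:49497251-49497950 (1.23 ± 0.18) belonged to chains that rose as a whole, by 0.51 and 0.60. A strong rise of 1 member was thus found both in chains that changed and in chains that did not.

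In 638 chains (25.6%) all members had log2 changes of 1 sign, 452 of them positive and 186 negative, and the median share of members with the majority sign was 80%. The difference between lambs 1 and 2 had 1 sign throughout in 15.0% of chains, and that between fetuses 1 and 2 in 22.7%. Agreement in sign was thus nearly as frequent between the fetuses as between the stages, though the stage change uses all libraries and the others use single libraries. In 1343 chains no member was called, in 599 chains 1 member was called, and 549 chains had 2 or more called members. Among these 549 chains the called members were all higher in 299, all lower in 215 and of both directions in 35 (6.38%). Only 6 chains had every member called.

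The summed change and the member calls told partly different things. Of the 408 called chains, 303 had members of 1 sign and 9 had no called member. A chain at chr15:42241251-42298250, picked out after its values were seen, was the 1 called chain with a member called the other way. It had 103 and 113 CPM in lambs, against 131 and 174 CPM in fetuses, and fell by 0.49 (SE 0.13) with 4 members lower and 1 higher. In the other direction, 225 chains had 2 or more called members without being called as a sum, and of 2271 called members 1183 lay in called chains.

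A test for unequal change of the members of 1 chain called 272 chains (10.9%), against 4.03% over all distal chains of 2 or more regions. The 4.03% includes these 272 chains. The share was 7.74% for chains of 5 to 9 regions, 20.5% for 10 to 19 and 37.1% for 20 or more. More members give the test more power, so these shares also carry the number of members. The SD of the log2 change within chains was 0.268 in chains of 5 or more and 0.284 in chains of 2 to 4. Of the 272, 57 were also called as a sum, 27 had called members in both directions and 19 had members of 1 sign. A p that misses the threshold does not show equal change, and this count depended heavily on the animals: it was 1 without lamb 1, 1 without lamb 2 and 1081 without fetus 1.

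The smallest p for unequal change belonged to the chain of 12 regions at chr3:175073551-175153000 (adjusted p = 8.46e-07). Its sum was 124 and 126 CPM in lambs, against 145 and 149 CPM in fetuses, with a log2 change of -0.24 ± 0.10 that was not called. Inside it 4 members were lower and 2 higher, with log2 changes between -0.86 and 0.71, and the members called higher were the last 2 along the chain. Member chr3:175080901-175084600 had 15.5 and 15.8 CPM in lambs, against 28.0 and 29.0 CPM in fetuses (-0.86 ± 0.13).

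In the other 3 chains with the smallest p for unequal change, members had values on both sides of 0. The chain of 25 regions at chr5:67819851-67933650 had 320 and 307 CPM in lambs, against 268 and 283 CPM in fetuses, and was not called (0.19 ± 0.09). It held 10 members called higher, while its strongest member, chr5:67923001-67933650, had 67.8 and 63.4 CPM in lambs, against 76.7 and 74.8 CPM in fetuses (-0.21 ± 0.11, adjusted p = 0.217). In the chain of 36 regions at chr3:78077651-78248550 the strongest member, chr3:78134951-78139350, fell by 0.63 (SE 0.13) with 34.1 and 30.3 CPM in lambs, against 53.0 and 46.9 CPM in fetuses, and 2 weaker members rose. The chain of 20 regions at chr16:24837251-24951900 had 3 members called higher and log2 changes between -0.33 and 0.63.

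**Figure D4:**
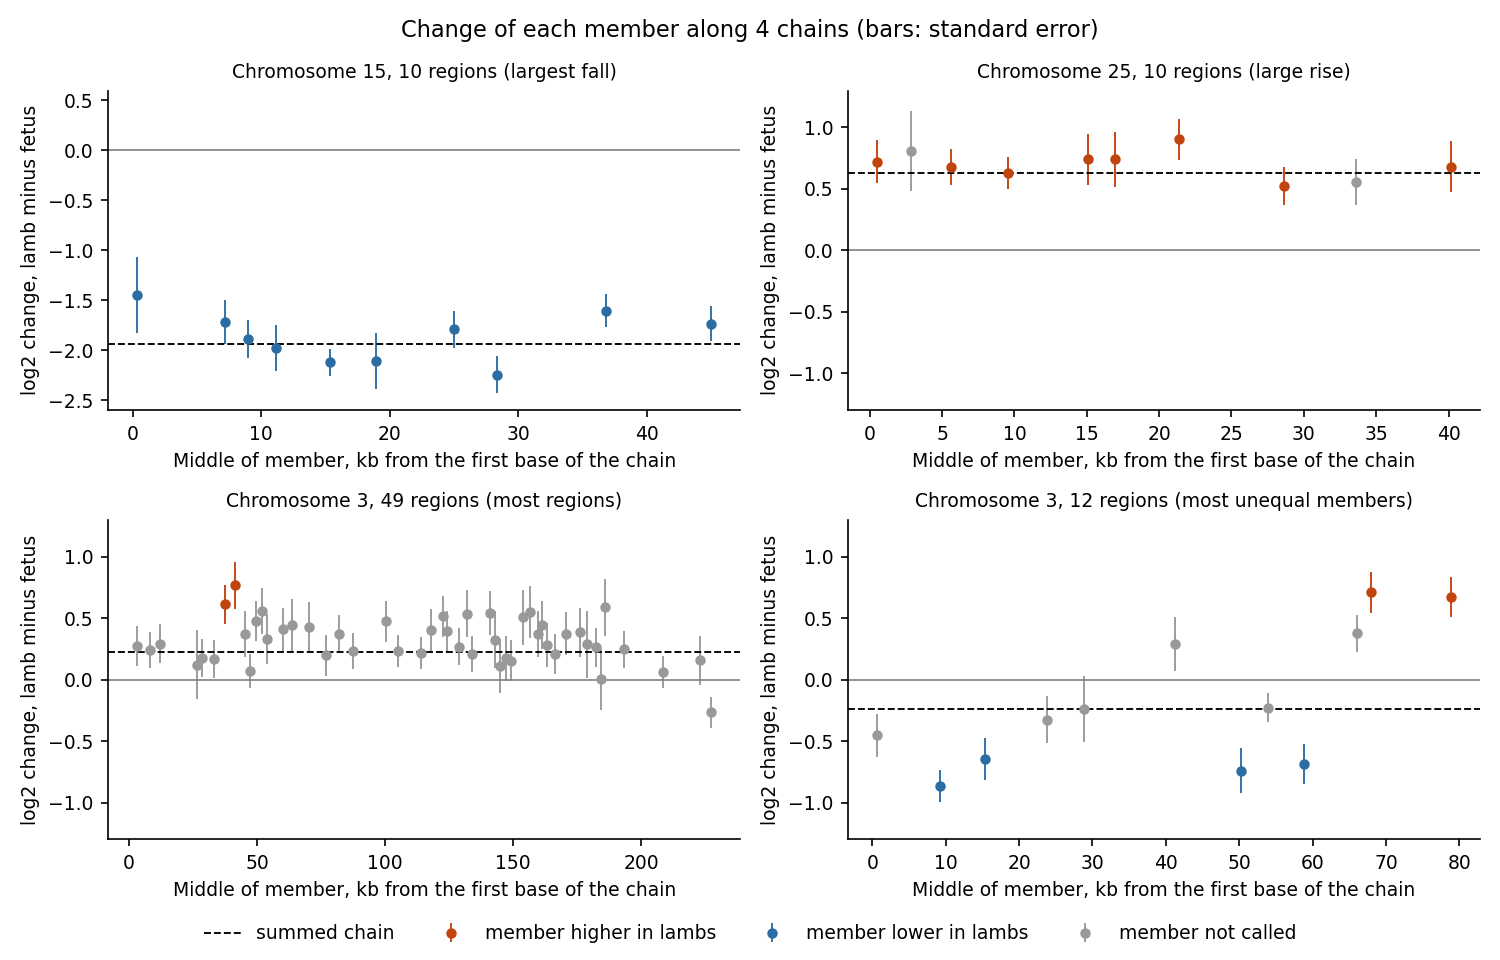
Log2 change (lamb minus fetus) of each member against its distance in kb from the first base of the chain, for 4 chains; points are members, bars are standard errors, colours give the member's call, and the dashed line is the change of the summed chain. The first panel has its own vertical scale. All 10 members are lower in the falling chain and all 10 lie above 0 in the rising one, 48 of 49 lie above 0 in the longest chain, and the chain of 12 regions has 4 members lower and 2 higher.

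The strongest member of a chain was higher in 140 (5.62%) and lower in 272 (10.9%) of 2491 chains, with a median log2 change of 0.02. These shares were close to the 4.48% and 9.44% of all H3K27ac regions. In the strongest level group 4.03% of all regions were higher and 18.9% lower. The weakest member was higher in 91 and lower in 55, with a median of 0.10, though a weak region has fewer reads and is called less often. First or last members had 278 higher and 228 lower of 4982 and a median of 0.11, and inner members had 1054 higher and 711 lower of 14886 and a median of 0.12, so place in the chain went with little difference in the median.

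Likeness between neighbours fell with distance and went on past the largest gap within a chain. Over 17377 pairs of neighbouring members, the log2 changes of neighbours correlated at r = 0.54, and 70.2% of pairs had the same sign. By gap the correlation was 0.66 up to 1 kb (5186 pairs), 0.57 up to 2.5 kb, 0.51 up to 5 kb and 0.42 up to 12.5 kb. For neighbouring distal regions across chains of any size, isolated regions included, it was 0.38 for gaps up to 25 kb. It was 0.31 up to 50 kb, 0.24 up to 100 kb and 0.23 beyond. Within chains of 5 or more it was 0.47 for members 2 places apart and 0.36 for members 9 places apart. Pairs at the edge of a chain of 5 or more were not set apart from the other pairs. Neighbours share libraries, depth and base composition, so these values are descriptions over regions.

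A like pattern was present between animals of the same stage. The difference between lambs 1 and 2 correlated at 0.29 between neighbours in a chain, and that between fetuses 1 and 2 at 0.50. The change of 1 neighbour was also taken from 1 lamb and 1 fetus, and that of the other from the other lamb and fetus. No library was then shared, and the mean correlation over all such splits was 0.33. Of the variance of log2 change among clustered regions, 45.7% lay between chains for lamb minus fetus, 25.4% for lamb 1 minus lamb 2 and 42.9% for fetus 1 minus fetus 2. In chains of 2 to 4 these shares were 54.7%, 31.3% and 49.3%, higher each time. By these measures, members of a chain differed together between the 2 fetuses nearly as much as between the stages. The measures are not fully alike. The stage change with all libraries was a fitted value, and the other values use differences of single libraries, which carry more counting noise.

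**Figure D5:**
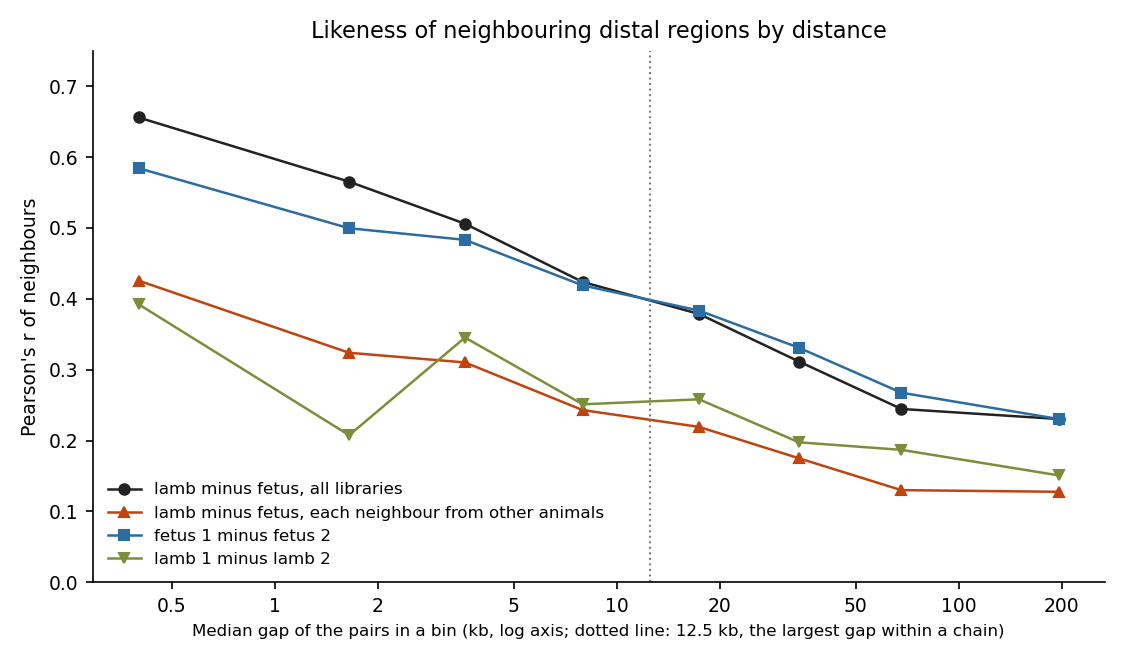
Pearson's r between neighbouring distal regions against the median gap of the pairs in kb (log axis), for the change between stages with all libraries, the change with each neighbour taken from other animals, and the differences within fetuses and within lambs. The line for all libraries goes down with distance, being 0.66 at the shortest gaps and 0.23 at the longest, with no step at the dotted line that marks the largest gap within a chain, and the line for the 2 fetuses lies close to it.

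In 1510 chains the span also held H3K27ac regions that overlap H3K4me3, 2965 in all, which the rule leaves out of the chain. Of these 72 (2.43%) were higher and 455 (15.3%) lower in lambs, near the 3.20% and 14.1% of all H3K4me3-overlapping regions. In chains called lower, 86 of 127 such regions (67.7%) were lower in lambs and their median log2 change was -0.58. In chains called higher, 31 of 364 (8.52%) were higher and the median was 0.19, and in chains not called 366 of 2474 were lower with a median of -0.10. Their change correlated at r = 0.59 with that of the chain over 2965 regions, a value that shares libraries on both sides.

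H3K4me3 itself, the promoter mark, showed few changes inside chains. Spans of 1615 chains (64.8%) held 3424 H3K4me3 regions and 876 chains held none. Of these regions 1 was higher and 2 lower in lambs, and 0.115% of all H3K4me3 regions were called, 0.0529% higher and 0.0619% lower. The median log2 change was 0.24 in chains called higher and -0.07 in chains called lower, against -0.04 over the table, and it was 0.13 over all 3424. Without fetus 1 the counts were 322 higher and 304 lower, without fetus 2 they were 533 and 75, and without lamb 1 they were 8 and 81. Without lamb 2 they were 0 and 0, and without lamb 3 they were 1 and 0.

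The 3 called H3K4me3 regions are named after their values were seen. Region chr18:30443851-30447250 had 4.48, 8.0 and 7.70 CPM of H3K4me3 in lambs, against 25.2 and 30.9 CPM in fetuses, and fell by 2.07 (SE 0.34, adjusted p = 0.0285). Region chr3:37276101-37281100 had 6.43, 10.1 and 8.62 CPM in lambs, against 31.8 and 33.5 CPM in fetuses, and fell by 1.97 (SE 0.32, adjusted p = 0.0285). Both lie in chains whose summed H3K27ac fell, chr18:30431501-30507750 and chr3:37261901-37300500, and all 3 lambs lay below both fetuses. Region chr3:21210451-21211000 had 2.39, 15.2 and 23.9 CPM in lambs, against 1.03 and 0.824 CPM in fetuses, with lamb 1 close to the fetuses. It rose by 3.88 ± 0.68 (adjusted p = 0.0386) in a chain that was not called. Lambs 2 and 3, which carry this rise, had the fewest H3K4me3 reads in regions (13090548 and 12482468, against 41765806 in lamb 1).

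H3K27me3, the mark of Polycomb repression, overlapped 315 clustered regions (1.59%) in 195 chains. The share was 2.39% in chains of 2 to 4, 3.26% among isolated distal regions and 7.68% among regions overlapping H3K4me3, so it was low in all distal sets. Of the 316 overlapping H3K27me3 regions 308 passed the low-count filter, and of these 15 (4.87%) were higher and 25 (8.12%) lower in lambs. Of all H3K27me3 regions 14.6% were called, 7.43% higher and 7.22% lower, so the share of gains lay below that of the table and the share of losses near it. Their median log2 change was -0.16, against 0.05 over the table. With column totals as the scaling it was 0.05, against 0.27 over the table, so its sign depends on the scaling. The counts were 54 higher and 50 lower without lamb 2, 4 higher and 29 lower without lamb 1, and at most 1 in each direction without either fetus.

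Few overlapping pairs of regions were called in both marks, and their directions were not tested. Over 340 overlapping pairs, H3K27ac was lower and H3K27me3 higher in lambs in 6, and H3K27ac higher and H3K27me3 lower in 2. Both were higher in 3, and over all these pairs the changes correlated at r = -0.34. Some H3K27me3 regions are in more than 1 pair. No such count is given for pairs outside the clustered regions, so these values are not particular to them. The regions that follow were picked out after their values were seen. Some pairs of opposite direction overlapped only at an edge, such as H3K27ac region chr1:88468201-88469200 and H3K27me3 region chr1:88465651-88468300. The 3 pairs with both marks higher overlapped more widely, so the counts of directions depend on the overlap required. The chain chr3:214981101-215032700 gave 3 of the 6, with 14.6 and 5.52 CPM of H3K27me3 in lambs, against 2.98 and 3.57 CPM in fetuses, at chr3:215014901-215017250 (1.62 ± 0.35, adjusted p = 0.000735). The 2 pairs with H3K27ac higher and H3K27me3 lower were at chr1:197349751-197350750 (H3K27ac 0.76 ± 0.16) and chr4:60111051-60113250 (H3K27ac 0.64 ± 0.15).

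The pairs with both marks higher were at chr13:36907001-36908550, chr3:179428001-179429750 and chr21:46573951-46574850. The last of these is the clustered region with the largest rise in H3K27ac, and it is covered by the H3K27me3 region chr21:46564151-46576200. That region had 332 and 182 CPM of H3K27me3 in lambs, against 128 and 124 CPM in fetuses, and rose by 1.03 ± 0.27 (adjusted p = 0.00622). In both marks lamb 1 was the highest library there, and both lambs lay above both fetuses.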

How the data were processed

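Native chromatin was immunoprecipitated with 10 µg of antibody and sequenced as single-end reads of 50 bp, per the labels' protocols. Reads were aligned to Oar_v3.1 in CLC Genomics Workbench 7.0, per the labels. MACS, edgeR and bedtools 2.19.0 appear in the submitters' processing notes, with no role stated. The authors deposited tables of raw read counts per region for 3 marks, and a promoter table whose values are a scaled signal. What that deposited signal is relative to is not stated, so it served the marker check only, as a share of each library's promoter sum. Region starts were made 1-based. Pooled input libraries were not used.

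Each region table was fitted whole with edgeR 4.0.16 (quasi-likelihood test, TMM scaling, filterByExpr, R 4.3.3), stage as the only term and Benjamini-Hochberg adjustment over the table at 0.05. All 19868 clustered regions passed the filter. For chains, counts were summed per distal chain, all other regions kept a row each, and the library sizes and TMM factors of the region table were used. Unequal change of members was tested with diffSpliceDGE on the region fit. CPM values use the TMM-scaled library sizes. The standard error of a log2 change is its size divided by the square root of F. P-values rest on a spread between animals that edgeR shares across the regions of a table. The shared part had a weight of 12.7 degrees of freedom for H3K27ac, 14.4 for H3K4me3 and an infinite one for H3K27me3. For H3K27me3 the p-value of a region therefore does not use that region's own spread between animals. There were 2 or 3 animals a stage, and that number limits the precision. The scripts were tested on simulated data in which regions varied independently. Members of a chain vary together in the real data, so these tests do not give the error rates for chains here.

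The clustered regions, marker lists and tests were chosen with earlier results of these data known. The text names the 6 chains with most regions, the 6 strongest, the 6 largest rises and 6 largest falls among called chains without overlap of the stages, the 4 with the smallest p for unequal change, their strongest and most changed members, and the 4 largest rises and falls of single regions. These came to 23 chains. Alternatives were other scalings, DESeq2 1.42.0, no filter, leaving out each library, a replicate block and other definitions of a chain.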

Additional observations from a re-analysis of the deposited data

How the results depend on the processing

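With 2 animals a stage, the number of calls depended most on which animals were used. Leaving out each library in turn gave 0.302% to 21.4% of clustered regions higher and 1.19% to 11.7% lower in lambs, and 0.522% to 24.6% of chains higher and 2.61% to 15.6% lower. It gave 0.0401% to 43.4% of chains with unequal members and 23.8% to 25.2% with members of 1 sign. Overlapping H3K27me3 regions (of all 316) were 0% to 17.1% higher and 0.316% to 15.8% lower, H3K4me3 regions in spans 0% to 15.6% higher and 0% to 8.88% lower, and the difference in read share was 1.45 to 1.70 percentage points. The lowest values of the first 5 came without lamb 1 (for unequal members without either lamb) and the highest without fetus 1, and the cause was not tested. A lone library of a stage is assumed to vary like the other stage. Of the 13 named chains that were called, 9 kept their call without lamb 1, 12 without lamb 2, 12 without fetus 1 and 13 without fetus 2, and none changed sign.

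Column totals, which move the median of all H3K27ac regions to 0.07, gave 10.7% of clustered regions and 16.6% of chains higher and 29.7% of chains with 1 sign. For H3K27me3 they gave 9.18% higher and 4.43% lower, and for H3K4me3 0.146% higher. DESeq2 size factors gave 0% higher and 0% lower for H3K4me3. The DESeq2 test gave 0.633% higher and 3.48% lower for H3K27me3, and 0.584% higher and 2.34% lower for H3K4me3. Dropping the low-count filter kept the called shares of all 3 marks within 1.5 times of their values in the text. So did a 50% overlap with H3K4me3 for the shares of regions and chains, and a 50% overlap for those of H3K27me3.

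The definition of a chain changed what was counted. Chains with unequal members were 2.47% for gaps up to 5 kb, 24.7% up to 25 kb, 6.18% with 3 or more regions, 22.4% with 10 or more and 6.67% with no H3K4me3 region within 2000 bp. Chains of 1 sign were 35.5%, 18.0%, 38.03% and 14.1% under the first 4 of these. The read share differed by 0.449, 2.18, 1.91, 0.809 and 0.998 points under all 5, higher in lambs each time. With 10 or more regions 14.5% of chains were higher.

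The labels use 1 replicate number for an animal of each stage, which gives no pairing. The deviations of same-numbered libraries correlated at 0.29 over all H3K27ac regions and 0.34 over clustered ones, with only 2 pairs. With the number as a block, 18.1% of clustered regions were higher and 8.99% lower, 24.5% of chains higher and 13.4% lower, and 32.2% of chains had unequal members. For H3K4me3 the block leaves out lamb 3 and gave 0.0292% lower.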
